A study of Mus musculus with 3 samples.

Results

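A set of 10 genes that regulate or mark Schwann cells and other glia of peripheral nerve were followed across gated glial cells of mouse ganglia and tendon: Sox10, Sox2, Pou3f1, Fabp7, L1cam, Shh, Olig1, Artn2, Adgrg6 and Tead1. They were chosen by name, and 9 of 10 were found by symbol among the 33696 features of each tendon library and the 35980 features of the ganglion library. Artn2 matched no symbol in the 3 libraries and is given no value.

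The study concerned sensory nerves and degeneration of overstrained tendon, and each of its 3 groups is 1 droplet single-cell RNA library (10x Genomics Chromium) from C57BL/6 mice. In this assay a barcode stands for 1 droplet and a unique molecular identifier (UMI) for 1 captured transcript. The neurectomy library held Achilles tendon cells of animals in which the sural nerve, which carries sensation from the lower leg and foot, had been cut 1 week before 4 weeks of ankle immobilisation in dorsiflexion, which strains the tendon. The sham library held Achilles tendon cells after the same 4 weeks of immobilisation, from mice in which the nerve had been exposed and left intact. Each tendon group comprised 5 mice, and how they were pooled is not stated. The library of dorsal root ganglia (DRG) pooled 18 ganglia (L4 to S1) of 6 mice in which 5 µL of a reporter virus, AAV-PHP.S-tdTomato, had been placed around the left Achilles tendon at 4 weeks of age, 4 weeks before harvest, and were not immobilised as far as the labels say. For this library 1 label names a lentivirus in place of the adeno-associated virus, and the protocol names ganglia of both sides where the design text names the injected side only. There is 1 library per group, so no difference below has a replicate check and no test was run. All intervals are exact 95% intervals that cover counting error only.

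As background, Schwann cells arise from the neural crest and either wrap single large axons in myelin or ensheath bundles of small axons without it, while satellite glia surround the cell bodies of sensory neurons in the ganglion. Sox10 is required throughout this lineage, Pou3f1 (also called Oct6) drives promyelinating cells towards myelination together with Egr2, and Sox2 marks immature Schwann cells and is known to hold back myelination. Adgrg6 (Gpr126) is an adhesion receptor that raises cyclic AMP and is needed for Schwann cells to begin myelin, Tead1 is a DNA-binding partner of the Hippo pathway effectors Yap and Taz, and L1cam is an adhesion molecule of axons and of non-myelinating Schwann cells. Fabp7 is a brain-type fatty acid binding protein of glial progenitors and satellite glia, Shh is a secreted hedgehog ligand, and Olig1 is a transcription factor of central oligodendrocytes.

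Barcodes were gated on marker genes that include none of the 9 genes. In the DRG library 9466 of 21810 analysed barcodes (43.4%) were glial, of which 4897 were myelinating-like (median depth 2302 UMIs), 801 non-myelinating-like (median 1918 UMIs), 2799 satellite-like (median 5697 UMIs) and 969 undetermined. The 14 myelinating markers were all detected in the myelinating-like gate and summed to 72895 CPM there (counts scaled to a gate total of 1000000 UMIs), against 4170 CPM in the non-myelinating-like gate and 1794 CPM in the satellite-like gate. The non-myelinating-like gate was led among its own markers by Csmd1 at 5065 CPM, and the satellite-like gate carried all 10 satellite markers, led by Ednrb at 1102 CPM. The satellite-like gate also held the non-myelinating list at 6729 CPM, beside 6462 CPM for its own list; the gates were set on scores and not on these sums. The thresholds of the gates were set after the data had been seen, and 494 myelinating-like, 70 non-myelinating-like and 364 satellite-like barcodes lay near a threshold.

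In tendon, 288 of 20155 neurectomy barcodes (1.43%) and 97 of 23197 sham barcodes (0.418%) were Schwann-like, a ratio of shares of 3.42 (interval 2.71 to 4.35). Of these, 220 neurectomy and 67 sham barcodes were myelinating-like, 44 and 16 were non-myelinating-like, and the rest undetermined. Tendon glia were gated on pan-glial and myelinating markers without the non-myelinating ones, unlike those of the ganglion, which can set this split. The Schwann-like gates held 600293 UMIs in the neurectomy library and 371113 UMIs in the sham library, at medians of 1169 and 1491 UMIs per barcode, and 14 and 12 barcodes lay near a threshold. All 14 myelinating markers were detected in both, at sums of 23390 CPM after neurectomy and 28582 CPM after sham surgery. The 9 non-myelinating markers, of which 8 were detected in both, summed to 4623 CPM after neurectomy and 1787 CPM after sham surgery. Tendon RNA was present in both as well: Col1a1, a collagen of fibroblasts and tenocytes, was at 7961 CPM after neurectomy and 14432 CPM after sham surgery, the 9 fibroblast markers summed to 14809 CPM after neurectomy and 21465 CPM after sham surgery, with all 9 detected in each, and the 9 tenocyte markers to 2156 CPM and 5023 CPM. Their part in the results below was not tested. The oligodendrocyte markers Mog, Opalin and Hapln2 were at 0 in both.

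The 3 libraries held 79750679 (neurectomy), 133570956 (sham) and 239515477 (DRG) UMIs, at medians of 1212, 1065 and 3422 UMIs per deposited barcode. The tendon libraries differ in sex-linked transcripts: UMIs of Xist, which female cells express, and of Y-linked genes numbered 55528 and 39 in the neurectomy library and 61571 and 6366 in the sham library, while the DRG library had 23 and 49538. The neurectomy and sham libraries shared 1001 barcodes, and the shallower partner was left out where it held under 10% of the UMIs of the deeper one.

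For 3 of the genes the sequence of the 250 bases before the start of the gene is shown, since 2 of them, Sox2 and Fabp7, had their highest glial level in the satellite-like gate of the ganglion and L1cam had its highest glial level in the non-myelinating-like gate. The sequences are from RefSeq on the build GRCm38.p6, which matched 4 of the 9 genes, and are written 5′ to 3′ on the strand of the gene. Capitals mark a core of the motif bound by SOX factors, searched on both strands as ACAAAG and ACAAT. The Sox2 sequence is chr3:34649745-34649994 on the + strand, the Fabp7 sequence chr10:57784673-57784922 on the + strand and the L1cam sequence chrX:73880791-73881040 on the - strand, which is 1 of 2 starts listed for L1cam.
Sox2: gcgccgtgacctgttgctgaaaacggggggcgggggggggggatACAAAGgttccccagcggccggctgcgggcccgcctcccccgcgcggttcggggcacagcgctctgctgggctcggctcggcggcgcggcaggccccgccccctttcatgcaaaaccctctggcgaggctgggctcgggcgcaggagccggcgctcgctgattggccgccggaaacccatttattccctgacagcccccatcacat
Fabp7: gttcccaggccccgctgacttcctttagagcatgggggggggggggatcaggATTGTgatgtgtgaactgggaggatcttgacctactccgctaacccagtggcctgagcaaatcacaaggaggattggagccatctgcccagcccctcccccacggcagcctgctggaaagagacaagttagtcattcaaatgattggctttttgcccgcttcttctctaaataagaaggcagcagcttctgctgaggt
L1cam: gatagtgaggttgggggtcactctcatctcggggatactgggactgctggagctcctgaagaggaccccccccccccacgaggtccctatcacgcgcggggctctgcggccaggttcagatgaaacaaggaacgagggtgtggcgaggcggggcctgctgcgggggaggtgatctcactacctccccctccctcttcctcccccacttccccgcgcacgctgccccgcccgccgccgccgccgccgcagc
ACAAAG stood 206 bases before the start of Sox2, and ACAAT, on the opposite strand, 198 bases before the start of Fabp7. Among all 32851 promoters of the table, 16.5% held ACAAAG and 27.7% held ACAAT in a window of the same length. The octamer ATGCAAAT, of the kind POU factors bind, and the TEAD motif GGAATG were in none of the 3 windows and were held by 1.60% and 12.6% of all promoters. G and C made up 72% of the Sox2 window, 54.8% of the Fabp7 window and 69.6% of the L1cam window, against a median of 52.4%.

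Within the ganglion, the transcription factors divided between the gates. Sox10 was counted at 3178 UMIs in the myelinating-like gate (244 CPM), 1357 in the satellite-like gate (80.7 CPM) and 124 in the non-myelinating-like gate (72.4 CPM). Its level was thus 3.02 times higher in the myelinating-like gate than in the satellite-like gate (interval 2.83 to 3.22), while satellite-like over non-myelinating-like was 1.11, with an interval of 0.926 to 1.35 that holds equal levels. All 3 stood far above the 2.98 CPM of blood endothelium and the 3.06 CPM of macrophages, classes that should lack Sox10. The share of barcodes with a Sox10 UMI, after thinning each barcode to 1000 UMIs, was 22.9% in the myelinating-like gate, 8.04% in the satellite-like gate and 6.54% in the non-myelinating-like gate, against 0.289% in blood endothelium. Before thinning these shares were 43.9%, 36.5% and 12.7%, against 2.14% in blood endothelium at its own depth.

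Pou3f1 had the sharpest division among the transcription factors. It was counted at 17681 UMIs in the myelinating-like gate (1355 CPM), 270 in the non-myelinating-like gate (158 CPM) and 624 in the satellite-like gate (37.1 CPM). The myelinating-like level was 8.59 times the non-myelinating-like level (interval 7.62 to 9.73). The satellite-like level lay within the range of classes outside the glia, such as blood endothelium at 29.5 CPM, mural cells at 56.8 CPM and red cells at 76.3 CPM. Within the gate, a cluster of 350 barcodes described below was at 90.7 CPM. Whether the satellite-like level is background was not tested. After thinning, 64.9% of myelinating-like, 13.5% of non-myelinating-like and 4.18% of satellite-like barcodes held a Pou3f1 UMI, against 2.46% of blood endothelium.

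Sox2 ran the other way. It had 5852 UMIs in the satellite-like gate (348 CPM), 290 in the non-myelinating-like gate (169 CPM) and 1464 in the myelinating-like gate (112 CPM). Satellite-like barcodes thus held 2.05 times the non-myelinating-like level (interval 1.82 to 2.32), and the non-myelinating-like level was 1.51 times the myelinating-like one (interval 1.33 to 1.71). Blood endothelium had 2.98 CPM. In barcodes of at least 5000 UMIs, gated anew, the first of these differences was gone: Sox2 was at 342 CPM in 1397 satellite-like barcodes and at 359 CPM in 38 non-myelinating-like barcodes. Sox10 in the same deep barcodes was at 193 CPM in the myelinating-like gate, 121 CPM in the non-myelinating-like gate and 76.7 CPM in the satellite-like gate, so that its lead over the next gate was under 2-fold.

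Tead1, the Hippo pathway factor, varied little between the gates. It had 720 UMIs in the non-myelinating-like gate (421 CPM), 5065 in the satellite-like gate (301 CPM) and 3329 in the myelinating-like gate (255 CPM). Its highest level was 1.40 times the next (interval 1.29 to 1.51). Blood endothelium, at 264 CPM (interval 252 to 276), lay among the glial gates, under the non-myelinating-like and satellite-like ones and beside the myelinating-like one. Mural cells, at 173 CPM, and neurons, at 55.3 CPM, were under every glial gate.

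The surface receptor Adgrg6 was even across the gates as well. It had 455 UMIs in the non-myelinating-like gate (266 CPM), 4096 in the satellite-like gate (243 CPM) and 2613 in the myelinating-like gate (200 CPM). The first exceeded the second 1.09 times, with an interval of 0.989 to 1.20 that holds equal levels, and scaling by TMM factors in place of gate totals turned this order round, at a log2 ratio of -0.25. Outside the glia Adgrg6 was low, at 37.5 CPM in perineurial-like cells, 30.6 CPM in macrophages, 17.8 CPM in blood endothelium and 5.22 CPM in neurons.

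L1cam, the adhesion molecule, was highest among the glial gates in the non-myelinating-like one. It had 183 UMIs there (107 CPM), 214 in the satellite-like gate (12.7 CPM) and 38 in the myelinating-like gate (2.91 CPM). The first level was 8.40 times the second (interval 6.86 to 10.3), and the myelinating-like level was at the 3.13 CPM of blood endothelium. Among barcodes of at least 5000 UMIs L1cam was at 48.3 CPM in the non-myelinating-like gate, from 12 UMIs, 8.84 CPM in the satellite-like gate and 8.46 CPM in the myelinating-like gate. The satellite-like level over the whole gate was above that of blood endothelium. It lay under the 56.3 CPM of red cells, from 48 UMIs, and the 55.5 CPM of neutrophils, from 36 UMIs. Neurons were far higher, at 162 CPM, and their 25005 L1cam UMIs made them the highest class of this library. Neuron markers summed to 295 CPM in the non-myelinating-like, 219 CPM in the satellite-like and 341 CPM in the myelinating-like gate. The part of neuronal RNA in the L1cam levels of the glial gates was not tested.

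Fabp7 spanned the widest range of the 9 genes over the gates. The satellite-like gate held 239604 UMIs (14242 CPM), the non-myelinating-like gate 3561 (2080 CPM) and the myelinating-like gate 541 (41.5 CPM). The satellite-like level was 6.85 times the non-myelinating-like level (interval 6.62 to 7.08) and the non-myelinating-like level 50.2 times the myelinating-like level (interval 45.8 to 55.0). Blood endothelium held 64.1 CPM and macrophages 70.8 CPM, so the myelinating-like level over the whole gate did not stand above classes outside the glia. In barcodes of at least 5000 UMIs, gated anew, Fabp7 was at 14965 CPM in the satellite-like gate, 5982 CPM in the non-myelinating-like gate and 546 CPM in the myelinating-like gate, so that both gaps were smaller and the log2 ratio of satellite-like over non-myelinating-like was 1.32. After thinning to 1000 UMIs, 98.8% of satellite-like barcodes, 54.7% of non-myelinating-like barcodes and 3.71% of myelinating-like barcodes held a Fabp7 UMI, against 2.60% of blood endothelium.

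The 2 remaining genes were close to absent from ganglion glia. Shh had 4 UMIs in the myelinating-like gate, 1 in the satellite-like gate and 0 in the non-myelinating-like gate, whose total allows up to 1.75 CPM at 3 counts. Olig1 had 0 UMIs in all 9466 glial barcodes, which allows up to 0.0828 CPM at 3 counts, and the 4 oligodendrocyte markers were also at 0.

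Counting these, 7 of the 9 genes had at least 50 UMIs over the gates and 10 CPM in the highest gate, and 5 of the 7 were at least 2-fold above the next gate: Sox10 and Pou3f1 in the myelinating-like gate, L1cam in the non-myelinating-like gate, and Sox2 and Fabp7 in the satellite-like gate. Among all 9698 genes that met the same minimum the share was 20.1%, made up of 7.98% in the myelinating-like, 6.07% in the non-myelinating-like and 6.00% in the satellite-like gate. In deep barcodes of at least 5000 UMIs, 3 of the 7 remained, without Sox10 and Sox2, where the share of all genes was 17.7%. Gate totals differ in make-up, and TMM factors would raise every satellite-like over non-myelinating-like log2 ratio by 0.38 and lower every myelinating-like over satellite-like one by 0.18, which leaves these 5 calls in place.

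The clusters within each gate showed how even the levels were. Over the 4 clusters that make up nearly all of the myelinating-like gate, Pou3f1 ranged from 1067 CPM in cluster 22 (134 barcodes) and 1084 CPM in cluster 4 (1927 barcodes) to 1657 CPM in cluster 6 (1615 barcodes) and 1803 CPM in cluster 5 (1220 barcodes). Sox10 in these clusters ran between 212 CPM in cluster 4 and 304 CPM in cluster 6, which was the same cluster with the highest Adgrg6, at 244 CPM, and Tead1, at 364 CPM. The satellite-like clusters 0, 1 and 2, with 1453, 990 and 350 barcodes, had Fabp7 at 15480, 13125 and 11447 CPM. Cluster 2, the shallowest of them at a median of 3713 UMIs, also had the highest Sox10 of the 3, at 127 CPM, and the highest Pou3f1, at 90.7 CPM. The 691 non-myelinating-like barcodes of cluster 3 had L1cam at 116 CPM and Fabp7 at 1696 CPM. For Pou3f1, Fabp7 and L1cam each of these clusters of the highest gate lay above each cluster of the other gates.

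**Figure D1:**
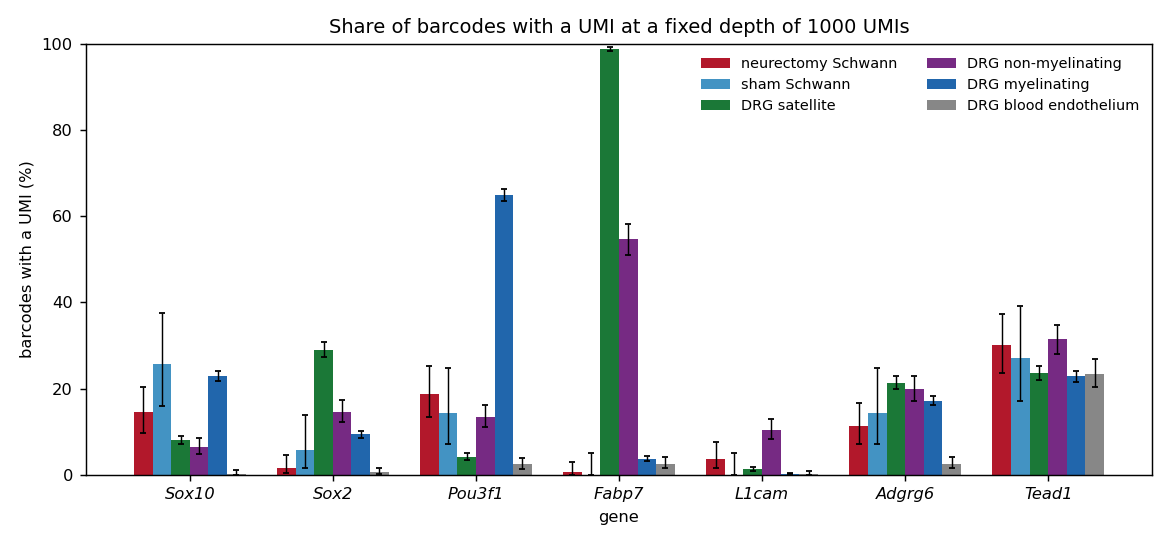
Share of barcodes with at least 1 UMI of each gene after every barcode was thinned to 1000 UMIs, in percent, for 7 genes by gate and library, with exact Clopper-Pearson 95% intervals and with blood endothelium of the DRG library as a class outside the glia. Fabp7 reaches 98.8% in satellite-like and Pou3f1 64.9% in myelinating-like barcodes of the ganglion, while Tead1 is held by 23.4% of its blood endothelium.

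In tendon the question was how the glia left in the tissue differ after the sensory nerve has been cut. The number of Schwann-like barcodes in the neurectomy library was above that in the sham library, as given above. Within them, Sox2 and Fabp7 had intervals of the log2 ratio below 0 and Pou3f1, L1cam and Tead1 above 0, with Fabp7 and L1cam from few UMIs, the intervals of Sox10 and Adgrg6 held 0, and Shh and Olig1 had too few UMIs for a ratio. A difference in the number of such cells and one in their recovery during digestion cannot be told apart. Of the 9 genes, 5 reached 50 UMIs over both gates and 10 CPM in the higher one, namely Sox10, Sox2, Pou3f1, Adgrg6 and Tead1. After neurectomy none of the 5 was higher by 2-fold or more and 1, Sox2, was lower by that much, where 7.69% of 4032 genes were higher and 5.03% lower by the same measure.

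Sox10 was counted at 135 UMIs after neurectomy (225 CPM) and 102 after sham surgery (275 CPM). The log2 ratio was -0.29, with an interval of -0.67 to 0.10 that holds 0. With mixed barcodes kept in the gate it was 0.18, and with the sham barcodes limited to the 21 that held Xist and no Y-linked UMI it was 0.28, so no direction is read.

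Sox2 was counted at 31 UMIs after neurectomy (51.6 CPM) and 44 after sham surgery (119 CPM), a log2 ratio of -1.20 (interval -1.91 to -0.50). The size of this difference rests in part on 1 sham barcode. The deepest sham Schwann-like barcode, with 34354 UMIs, 9.26% of its gate, lay in the non-myelinating-like gate and held 15 of the 44 Sox2 UMIs, together with 24 of 102 Sox10, 10 of 17 Fabp7 and 20 of 73 Adgrg6 UMIs. The deepest neurectomy barcode, with 28044 UMIs, held none of these. Without both, Sox2 was at 54.2 CPM after neurectomy and 86.1 CPM after sham surgery, under 2-fold. In barcodes of at least 5000 UMIs the direction turned, with 92.7 CPM in 19 neurectomy barcodes and 84.7 CPM in 18 sham barcodes. In the myelinating-like gate alone the levels were 53.9 CPM after neurectomy, from 25 UMIs, and 56.7 CPM after sham surgery, from 14 UMIs.

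Pou3f1 was counted at 262 UMIs after neurectomy (436 CPM) and 109 after sham surgery (294 CPM), a log2 ratio of 0.57 (interval 0.24 to 0.91). The interval leaves out 0 and the difference is under 2-fold. Nearly all of it lay in myelinating-like barcodes, at 539 CPM after neurectomy, from 250 UMIs, and 429 CPM after sham surgery, from 106 UMIs, where the interval of the log2 ratio, -0.0032 to 0.67, holds 0. Against the 21 sham barcodes with Xist and no Y-linked UMI the ratio was larger, with 74.0 CPM in sham and a log2 ratio of 2.56. In barcodes of at least 5000 UMIs it was 1.40. When the Leiden cluster of Schwann-like barcodes was used in place of the gate it was -0.15, so neither the size nor the direction of the Pou3f1 difference held under all of these.

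Tead1 followed the same course, at 286 UMIs after neurectomy (476 CPM) and 127 after sham surgery (342 CPM), a log2 ratio of 0.48 (interval 0.17 to 0.79). It was 1.27 against the sham barcodes with Xist only, 1.24 in barcodes of at least 5000 UMIs, 0.02 in the Leiden cluster and -0.14 as a mean over barcodes. Tenocyte-like cells held Tead1 at 238 CPM after neurectomy and 208 CPM after sham surgery, and lymphatic endothelium at 241 CPM and 274 CPM.

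Adgrg6 was counted at 107 UMIs after neurectomy (178 CPM) and 73 after sham surgery (197 CPM), a log2 ratio of -0.14. Its levels in the myelinating-like gate were 132 CPM after neurectomy and 134 CPM after sham surgery, from 61 and 33 UMIs. In the non-myelinating-like gate they were 444 CPM and 387 CPM, from 44 and 33 UMIs, so that the non-myelinating-like gate was higher than the myelinating-like gate in both libraries. The deepest sham barcode held 20 of those 33 UMIs, and without the deepest barcode of each gate the levels were 429 CPM after neurectomy and 255 CPM after sham surgery in the non-myelinating-like gate and 140 and 121 CPM in the myelinating-like gate. Tendon macrophages also held Adgrg6, at 108 CPM after neurectomy and 134 CPM after sham surgery, from 515 and 1144 UMIs, whereas tendon blood endothelium held 13.7 CPM and 13.3 CPM.

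The other 4 genes were under the count minimum in tendon glia. L1cam was counted at 36 UMIs after neurectomy (59.97 CPM) and 8 after sham surgery (21.6 CPM). The log2 ratio of these counts was 1.48, with an interval of 0.35 to 2.79, and most of them came from the non-myelinating-like gate, at 18 UMIs after neurectomy (182 CPM) and 6 after sham surgery (70.3 CPM). L1cam was also present in tendon lymphatic endothelium, at 21.96 CPM after neurectomy and 33.2 CPM after sham surgery, and in macrophages, at 18.4 CPM and 29.2 CPM. Fabp7 was counted at 6 UMIs after neurectomy (10.0 CPM) and 17 after sham surgery (45.8 CPM), of which the deepest sham barcode held 10. Without the deepest barcodes it was at 10.5 and 20.8 CPM. Shh had 0 UMIs after neurectomy and 1 after sham surgery, and Olig1 had 3 after neurectomy and 0 after sham surgery.

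**Figure D2:**
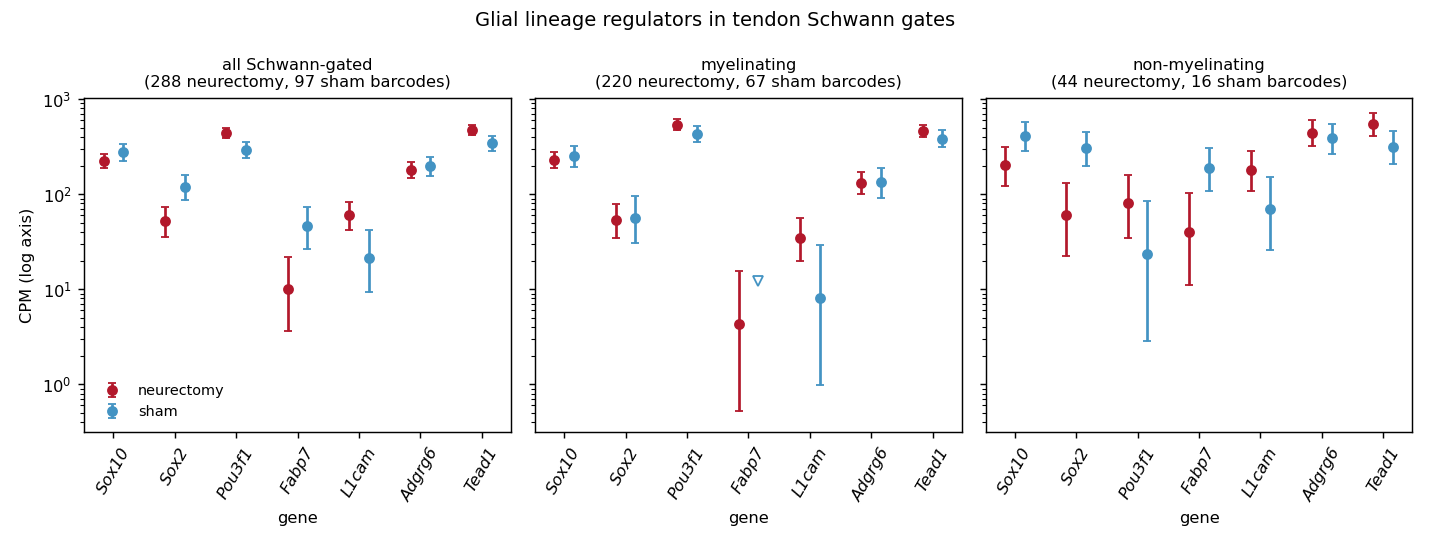
Levels of 7 of the 9 genes, without Shh and Olig1, in the Schwann-like, myelinating-like and non-myelinating-like gates of tendon, neurectomy left of sham, in CPM on a log axis with exact Poisson 95% intervals; the open triangle is the level that 3 counts would give where the count was 0. Sox10 lies at 225 CPM after neurectomy and 275 CPM after sham surgery in the Schwann-like gate, and the largest gap of a gene with at least 50 UMIs in that gate is that of Sox2, at 51.6 and 119 CPM.

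Between the 2 tendon sub-gates, Pou3f1, L1cam, Sox2, Fabp7 and Adgrg6 ran in the same direction as in the ganglion in both libraries. Sox10 and Tead1 did so in the neurectomy library only. Fabp7 rested on 4 non-myelinating-like and 2 myelinating-like UMIs after neurectomy, and on 16 and 0 after sham surgery. The Sox2 and Sox10 levels of the 2 sub-gates after neurectomy were close, with few UMIs in the smaller gate. In the neurectomy library, Pou3f1 was at 539 CPM in the myelinating-like gate and 80.7 CPM in the non-myelinating-like gate, from 250 and 8 UMIs. In the sham library it was at 429 and 23.4 CPM, from 106 and 2 UMIs. L1cam ran the other way. After neurectomy it was at 34.5 CPM in the myelinating-like and 182 CPM in the non-myelinating-like gate, from 16 and 18 UMIs. After sham surgery it was at 8.09 and 70.3 CPM, from 2 and 6 UMIs. Sox10 in the myelinating-like gate was at 229 CPM after neurectomy and 251 CPM after sham surgery. In the non-myelinating-like gate it was at 202 CPM after neurectomy, from 20 UMIs, and 410 CPM after sham surgery, from 35 UMIs, of which 24 were in the 1 deepest barcode. The difference in the non-myelinating-like gate is a log2 ratio of -1.02, past 2-fold, where 20.9% of 594 genes in this small gate were higher by that much and 15.3% lower. Without the deepest barcode of each gate the log2 ratio was -0.01. Sox10 was then at 243 CPM in the myelinating-like and 214 CPM in the non-myelinating-like gate after neurectomy. After sham surgery it was at 265 and 216 CPM, so that both libraries had the direction of the ganglion. Sox2 in the non-myelinating-like gate was at 60.5 CPM after neurectomy, from 6 UMIs, and 305 CPM after sham surgery, from 26 UMIs, of which the same deepest barcode held 15. In the myelinating-like gate no gene that met the minimum was past 2-fold, where 8.19% of 3002 genes were higher and 4.16% lower.

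Shares of barcodes gave a similar picture at low precision. After thinning to 1000 UMIs, 186 neurectomy and 70 sham Schwann-like barcodes were left, with 102 and 27 shallower ones set aside. A Sox10 UMI was found in 14.5% of neurectomy barcodes (interval 9.79 to 20.4) and 25.7% of sham barcodes (interval 16.0 to 37.6), against 0.128% and 0.1504% of blood endothelium. For Pou3f1 the shares were 18.8% after neurectomy and 14.3% after sham surgery, and for Tead1 30.1% and 27.1%, with intervals that overlap. Before thinning, Sox10 was found in 21.2% of neurectomy and 33.0% of sham barcodes and Pou3f1 in 25.3% and 20.6%.

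**Figure D3:**
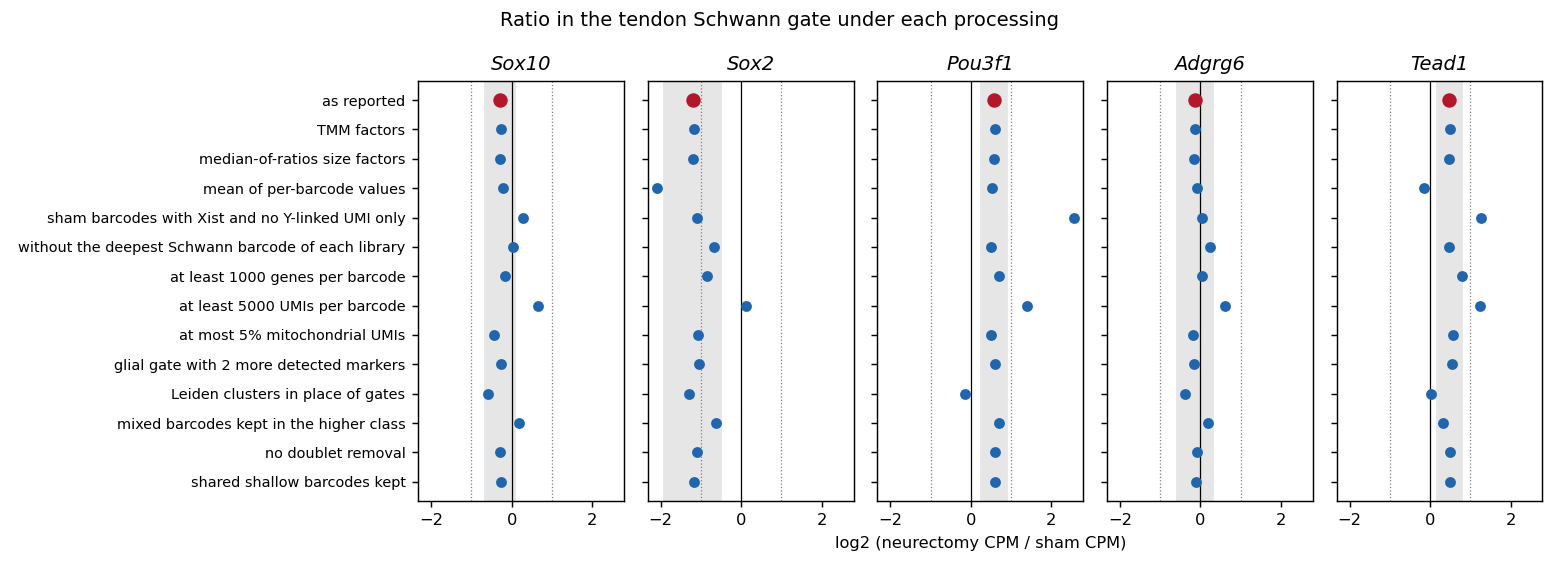
Log2 ratio of neurectomy over sham in the Schwann-like gate for the 5 genes with enough UMIs, as reported (red) and under each alternative (blue), with dotted lines at 2-fold and the 95% counting interval of the reported ratio in grey. The points of each gene lie on both sides of 0 for Sox10, Sox2, Pou3f1, Adgrg6 and Tead1, and the range is widest for Pou3f1, which reaches 2.56.

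Across all gated classes of the 3 libraries, 20 pairs of a gene and a library reached 10 CPM in a glial gate or in another class of at least 100 barcodes, and for 18 of them the highest level was in a glial gate, where 20.0% of all 38123 such pairs of a gene and a library had theirs. The exceptions were both of L1cam, which was highest in neurons of the ganglion and in lymphatic endothelium of the sham library. In tendon, outside the Schwann-like gate, Sox10 did not exceed 2.38 CPM, Sox2 6.26 CPM, Fabp7 0.990 CPM and Pou3f1 9.68 CPM in classes of at least 100 barcodes. The tendon pairs of these genes could thus enter only through the Schwann-like gate and had to be highest there. For them the count is no result. Shh, at 6.03 CPM in ganglion neurons, was left out by the same minimum. The tendon and DRG libraries come from different tissues and were digested differently, so their levels are only set side by side. Pou3f1 was at 539 CPM (neurectomy) and 429 CPM (sham) in myelinating-like barcodes of tendon and 1355 CPM in those of the ganglion. Sox2 was at 53.9, 56.7 and 112 CPM in the same 3 gates, and Sox10 at 229, 251 and 244 CPM.

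**Figure D4:**
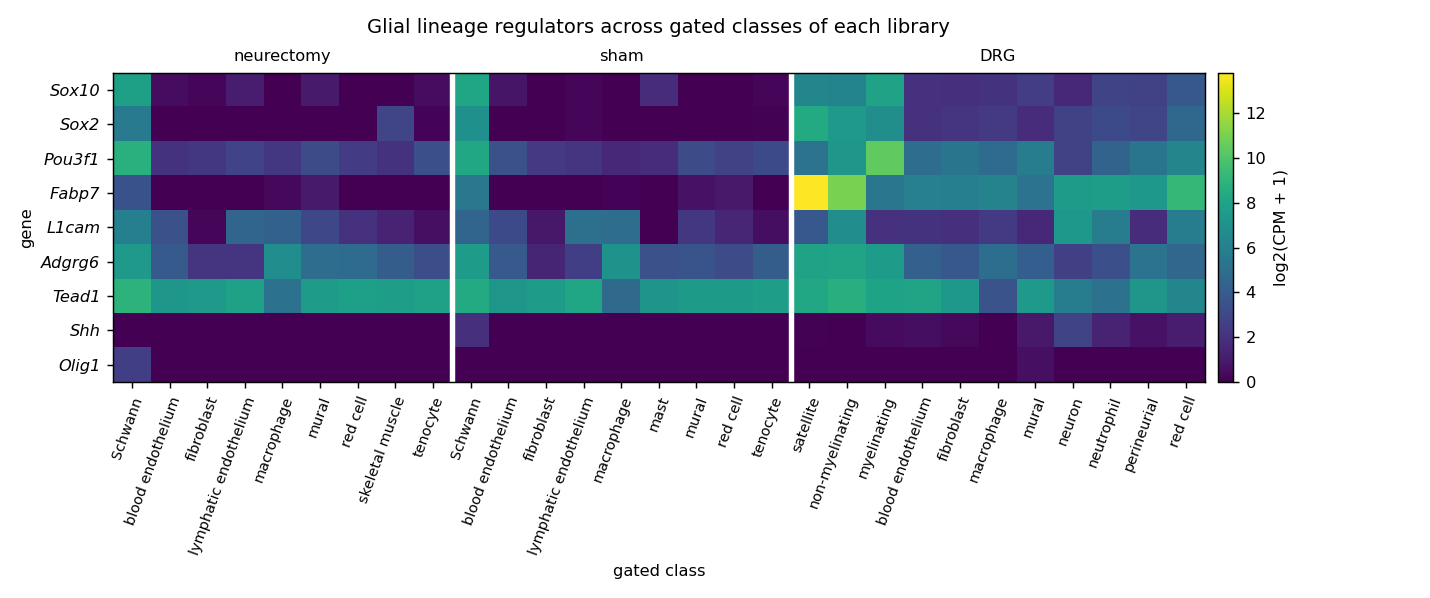
Level of each of the 9 genes in every gated class of the neurectomy, sham and DRG libraries, as the log2 of CPM + 1 by colour, with glial gates first. Sox10 and Sox2 are highest in glial gates, Tead1 is spread over stromal and vascular classes, and Shh reaches 6.03 CPM in DRG neurons.

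Shh, which glia lacked, was a gene of some sensory neurons. The 3294 neuron barcodes held 932 Shh UMIs (6.03 CPM), and 498 of them were in cluster 23, whose 302 barcodes were led by D130079A08Rik, Fam19a4 and P2ry1 and had 33.4 CPM, with a Shh UMI in 72.8% of barcodes. Cluster 21, with 435 barcodes led by Thy1, S100b and Htr3a, had 308 UMIs (16.8 CPM), and the other neuron clusters lay at 4.50 CPM or less. L1cam was in contrast even over the neuron clusters, at 120 to 180 CPM, except for 70.9 CPM in the shallow cluster 7.

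The pathway partners of these genes were taken from 9 lists of 93 genes. Of these, 50 met the count minimum in the tendon Schwann-like gates, and after neurectomy 9 were higher by 2-fold or more and 3 lower by as much, beside the 7.69% and 5.03% of all genes given above. At 5000 or more UMIs per barcode these counts were 15 and 8 of the same 50, where 15.6% of all genes were higher and 11.7% lower. The minimum was on UMIs summed over both gates, and the neurectomy gate held more of them. Ngfr, Runx2, Sox4, Ets1, Nrcam and Notch1, all among the higher genes, met it through that gate alone. Bdnf and Gfra3, lower after neurectomy, and Gap43, higher, fell under it. The shares over all genes were taken under the same minimum. The median log2 ratio over all 4032 genes was 0.05. In the repair Schwann list, of genes that denervated Schwann cells are known to switch on, 3 of 6 were higher and none lower, with a median of 1.12. All 3 reached the minimum on neurectomy UMIs alone, which shapes this count and median, so they are no result about the list. Ngfr, the low-affinity neurotrophin receptor, was counted at 56 UMIs after neurectomy (93.3 CPM) and 6 after sham surgery (16.2 CPM), a log2 ratio of 2.53 (interval 1.32 to 4.03). Ngfr is also a marker of the non-myelinating-like gate, whose list was higher after neurectomy in the same gates, at the sums given above, and the part of that list in the result was not tested. Runx2, a runt-domain transcription factor, had 53 UMIs after neurectomy and 7 after sham surgery (88.3 and 18.9 CPM), and Sox4, a transcription factor of immature cells, 79 and 20 (132 and 53.9 CPM). Bdnf, a neurotrophin of the same list, was under the count minimum and is named after its values were seen. It had 7 UMIs after neurectomy (11.7 CPM) and 38 after sham surgery (102 CPM), a log2 ratio of -3.13 (interval -4.54 to -1.95), and without the deepest barcode of each library 12.2 and 47.5 CPM. In the myelinating-like gate alone, 1 of 4 genes of the repair list was higher, Sox4, with a median of 0.45. There 8.19% of all 3002 genes were higher, with a median of 0.09. In the non-myelinating-like gate 1 of 3 was higher, Atf3, with a median of 0.85. There 20.9% of all 594 genes were higher, with a median of -0.06.

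Of the Adgrg6 ligands and cyclic AMP genes, 2 of 9 were higher, and both encode chains of laminin, which binds the receptor. Lama2, of the basal lamina, was counted at 738 UMIs after neurectomy (1229 CPM) and 114 after sham surgery (307 CPM), a log2 ratio of 2.001 (interval 1.71 to 2.30), and Lamc1 at 186 and 56 (310 and 151 CPM). Gnas, the stimulatory G protein, had 825 and 1129 CPM. Among other Schwann transcription factors 2 of 6 were higher, Zeb2, a repressor needed for myelination, at 1774 CPM after neurectomy and 846 CPM after sham surgery, and Ets1 at 91.6 and 37.7 CPM. Foxd3, of the early neural crest and itself a marker of the gate, had 140 and 80.8 CPM.

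Of the L1 family and its partners 1 of 6 was higher, Nrcam, an adhesion molecule of nodes of Ranvier, at 91.6 CPM after neurectomy and 37.7 CPM after sham surgery. Chl1, a close relative of L1cam and a marker of the non-myelinating-like gate, had 415 and 245 CPM, and Ank3, the ankyrin that anchors this family, 1189 and 752 CPM. Of the Fabp7 family and Notch list 1 of 6 was higher, the receptor Notch1, at 83.3 and 35.0 CPM, while Fabp4, the fatty acid binding protein of fat cells, had 305 and 458 CPM. Of the hedgehog list 2 of 8 were lower and none higher, with a median of -0.49. Gli3, a transcription factor of this pathway, was counted at 26 UMIs after neurectomy (43.3 CPM) and 47 after sham surgery (127 CPM), and Gas1, a co-receptor, at 93 and 146 UMIs (155 and 393 CPM). Of the Hippo list 1 of 9 was lower, Crim1, at 98.3 CPM after neurectomy and 199 CPM after sham surgery, and the target genes Ccn2 and Ccn1 had 122 and 191 CPM, and 113 and 178 CPM. Without the deepest barcode of each library Crim1 was under 2-fold, at 99.6 CPM after neurectomy and 134 CPM after sham surgery, while Chl1, at 435 and 143 CPM, and Ccn2, at 71.6 and 211 CPM, were past it. None of the SoxE and SoxB1 relatives Sox8, Sox9, Sox1, Sox3 and Sox21 met the minimum, and of the artemin list 1 gene did, within 2-fold. The fibroblast and tenocyte markers given above were lower after neurectomy in the same gates, and Gas1, Ccn1 and Ccn2 are also genes of fibroblasts. Their part in these differences was not tested.

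In the ganglion the lists differed in how many genes were at least 2-fold above the next gate, where 20.1% of all genes were. There were 4 of 11 other Schwann transcription factors, 0 of 2 SoxE and SoxB1 genes, 3 of 8 hedgehog and 1 of 9 Hippo genes. The L1 list had 5 of 7, the Adgrg6 list 4 of 12, the artemin list 2 of 2 and the Fabp7 and Notch list 3 of 8. Chl1, among the 5, is a marker that sets a gate. Genes named below are those with the largest ratios. Of the repair Schwann list 4 of 8 were at least 2-fold higher in the non-myelinating-like gate than in the next, where 6.07% of all genes were, and none in another gate; Gfap and Ngfr, which are among the 4, are markers that set this gate, so their lead is no result. Gfap, an intermediate filament, had 316 UMIs there (185 CPM), 26 in the myelinating-like gate (1.99 CPM) and 21 in the satellite-like gate (1.25 CPM), Gap43, a growth-associated protein, was at 71.3, 9.66 and 4.99 CPM in the same order, and Ngfr at 29.8, 1.84 and 0.832 CPM. The 2 receptor genes of the artemin list that met the minimum led different gates. Gfra3, which binds artemin, was at 34.5 CPM in the non-myelinating-like gate, from 59 UMIs, and 0.843 CPM in the myelinating-like one, from 11 UMIs. Gfra1, the receptor of GDNF, was at 692 CPM in the myelinating-like gate and 36.8 CPM in the non-myelinating-like one.

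Of the hedgehog list, Ptch1, the receptor that is also a target of the pathway, was highest in the satellite-like gate at 84.8 CPM, against 35.1 CPM in the non-myelinating-like gate, and so was the co-receptor Gas1, at 38.3 against 12.9 CPM, while Disp1, which releases the ligand, was at 68.6 CPM in the myelinating-like gate against 9.35 CPM. Of the Notch list, Jag1, a ligand, was at 250 CPM in the satellite-like gate against 63.7 CPM in the non-myelinating-like gate, and Hey2, a target, at 170 against 42.6 CPM, whereas Fabp5, a relative of Fabp7, was highest in the non-myelinating-like gate at 2871 CPM, against 1318 CPM in the satellite-like gate. Of the L1 family, Nfasc, which holds the junction of myelin and axon, was at 312 CPM in the myelinating-like gate against 15.2 CPM in the non-myelinating-like gate, the adhesion molecule Cntn1 at 107 CPM in the satellite-like gate against 25.7 CPM, and the semaphorin co-receptor Nrp1 at 58.4 CPM in the non-myelinating-like gate against 14.8 CPM in the myelinating-like gate.

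Among the other transcription factors, Ets1 was at 178 CPM in the non-myelinating-like gate against 13.5 CPM in the satellite-like gate, Mitf at 120 CPM in the myelinating-like gate against 25.6 CPM in the satellite-like gate, and Pax3 at 12.9 CPM in the non-myelinating-like gate against 2.38 CPM in the myelinating-like gate. The Sox2 relative Sox3 followed Sox2, at 37.8 CPM in the satellite-like gate, 28.0 CPM in the non-myelinating-like gate and 0.383 CPM in the myelinating-like gate, and the Sox10 relative Sox8 was at 15.5, 11.7 and 11.4 CPM in the myelinating-like, non-myelinating-like and satellite-like gates. Both led the next gate by under 2-fold, and the interval of the Sox8 ratio, 0.836 to 2.22, holds equal levels. Of the Hippo list Amotl2 was at 59.6 CPM in the non-myelinating-like gate against 21.8 CPM in the myelinating-like gate, Lats2 at 175 against 92.9 CPM, and Yap1 at 176 CPM in the non-myelinating-like gate against 142 CPM in the satellite-like gate. Only Amotl2 of these was past 2-fold. Of the Adgrg6 list, Col4a2, a collagen IV chain, was at 190 CPM in the myelinating-like gate against 88.8 CPM in the non-myelinating-like gate, Adcy2, an adenylyl cyclase, at 92.4 CPM in the satellite-like gate against 35.1 CPM, and Col4a5 at 13.6 CPM in the satellite-like gate against 2.92 CPM in the non-myelinating-like gate.

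The genes whose levels ran most like each of the 9 were sought by Pearson correlation of log2 CPM + 1 over the 28 gated classes of at least 100 barcodes, as a description, since classes of a library share its depth and tissue. Sox10 was followed by Plekhb1 (r = 0.97), Gjc3 and Igsf11, and Sox2 by Gpr37l1 (r = 0.96), Cmtm5 and Foxd3. Pou3f1 was followed by Bcas1 (r = 0.95), Ugt8a and Cldn19, and Fabp7 by Adgrb3 (r = 0.96), Mmd2 and Aldoc. For Adgrg6 the nearest were Egr2 (r = 0.87), Slc27a1 and 4930469K13Rik, for Tead1 Parva (r = 0.90), Syde1 and Myo6, and for L1cam Ckap5 (r = 0.78), Mapt and Stx7. Plekhb1, Foxd3, Ugt8a, Cldn19, Aldoc and Egr2 are among the markers that set the gates. Shh and Olig1 were under 10 CPM in all of these classes and were not compared.

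Some of the counts cannot be assigned to 1 gene with certainty. Exons of L1cam overlap those of Arhgap4 on the same strand in the GENCODE annotation, and those of Pou3f1, Shh, Olig1 and Adgrg6 overlap antisense or non-coding genes on the opposite strand.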

How the data were processed

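The authors deposited raw UMI counts, as integers for each gene in each barcode, which the file headers credit to Cell Ranger 8.0.1. The submitters' processing notes name both mm10 and GRCm39, with no library assigned to either, so genes were matched by symbol and only RefSeq sequences carry coordinates. Per the labels' protocols, enzymes dissociated both tissues and ganglion cells were also enriched on a density gradient, which can set the shares of classes.

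Barcodes with under 500 genes (2962 neurectomy, 7523 sham, 825 DRG) or over 15% mitochondrial UMIs (113, 122 and 357 others) were left out. Doublets called by Scrublet were removed from the DRG library (2.52%). It called 0% in either tendon library, so it did not work there, and the 1639 neurectomy and 1884 sham barcodes above the score bounding the top 8% were removed. Their medians of 1113 (neurectomy) and 1085.5 (sham) UMIs lay under the 1347.5 and 1338 of all that passed, so doublets remain. Shallower partners of shared barcodes under 10% of the partner's UMIs were removed (198, 225 and 9).

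Barcodes were scored by mean z-scores of log counts per 10000 UMIs over marker lists. A gate needed 3 detected markers, a score of 0.5 and a lead of 0.5 over the next class, which left 4246, 6826 and 3341 barcodes mixed and 9389, 7613 and 1972 unassigned. Tendon glia were scored on 22 genes, 8 pan-glial and 14 myelinating, with no non-myelinating marker. DRG glia took the highest score of the myelinating, non-myelinating and satellite lists, with 3 pan-glial markers detected. A sub-gate needed 2 of its own markers and a lead of 0.5. Genes entered with 50 UMIs over the groups compared and 10 CPM in the higher one. Intervals are exact Poisson (levels), Clopper-Pearson (shares) and conditional binomial (ratios), and a count of 0 is set against 3 counts. On simulated counts with 200 of 4048 genes changed by a log2 ratio of 2, 100% were past 2-fold in the right direction, with 0.52% of unchanged genes. These counts were Poisson draws from a pooled profile, with no spread between barcodes, mice or libraries. The 0.52% is therefore no rate of false calls in the data.

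All 9 genes found are named. Of each pathway list up to 3 are named by the largest log2 ratio, in tendon where its interval leaves out 0 and in the DRG library of the highest over the second highest glial gate. The 3 best correlated genes are named for each of the 9 that could be compared, and the most abundant marker of another class, except where it is not reported here. Genes and lists were chosen with earlier results of these data known. Alternatives used TMM factors (edgeR 4.0.16), size factors (DESeq2 1.42.0), Leiden clusters (scanpy 1.11.5) and other filters. Python 3.11.15, scipy 1.17.1 and R 4.3.3 were used.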

Additional observations from a re-analysis of the deposited data

How the results depend on the processing

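No paired analysis was possible because each group is 1 library, and for the same reason no replicate could be left out. Across the alternatives, 167 values of single genes stayed within their counting interval, 59 left it and 3 turned round after a 2-fold difference. Of the main counts and shares, 72 stayed within 1.5 times or their interval and 36 did not. The count of 18 gene and library pairs highest in a glial gate held under all that were run, though part of it was set by the 10 CPM minimum. The cause of the changes below was not tested. In barcodes of at least 5000 UMIs, 2 of the 5 genes were at least 2-fold higher after neurectomy in place of 0, and none lower in place of 1 (15.6% and 11.7% of all genes), Sox2 turned to a log2 ratio of 0.13, Sox10 in the non-myelinating-like gate to 1.74, and Sox2 of satellite-like over non-myelinating-like DRG barcodes to -0.067. At that depth 3 of 7 genes in place of 5 led a DRG gate 2-fold (17.7% of all genes), and 15 pathway genes in place of 9 were higher and 8 in place of 3 lower. With the sham barcodes limited to those with Xist and no Y-linked UMI, 2 of the 5 genes were higher (17.6% of all genes) and 5 pathway genes lower (8.13%). None was 2-fold lower without the deepest barcodes, an alternative chosen after seeing the data, with at least 1000 genes per barcode, or with mixed barcodes kept, which left 1 pathway gene lower (4.86%, 7.24% and 2.80% of all genes were lower). The ratio of Schwann-like shares, 3.42, was 2.27 with at least 1000 genes, 1.90 with at least 5000 UMIs and 4.83 by Leiden clusters. In the DRG library the myelinating-like share of 22.5% was 5.14% at 5000 UMIs, 31.6% by Leiden clusters and 13.5% with 2 more markers required, the non-myelinating-like share of 3.67% was 3.05% with 1000 genes, 0.513%, 4.42% and 1.29%, and the satellite-like share of 12.8% was 13.7%, 18.9%, 18.1% and 10.0%. With a count minimum of 10 and none on CPM, 20.6% in place of 12.7% of genes were past 2-fold in tendon. Thinned to 1000 and 2000 UMIs, the neurectomy shares with a UMI were 14.5% and 33.9% (Sox10) and 18.8% and 33.9% (Pou3f1), the sham shares at 2000 UMIs 52.8% and 30.6%, and the DRG myelinating-like shares 22.9% and 36.5% (Sox10) and 64.9% and 80.0% (Pou3f1). Depth limits all tendon values, since 19 barcodes of at least 5000 UMIs in each tendon library held 37.8% (neurectomy) and 65.4% (sham) of the UMIs of the Schwann-like gates.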
